A study of Mus musculus with 16 samples.

Results

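Microglia of mice labelled IRF8KO were compared with wild-type (WT) microglia at postnatal day 9 (P9), the youngest of the ages sampled. The comparison holds 6 of the 16 libraries of the series, chosen by their genotype and age labels alone, 3 labelled WT and 3 labelled IRF8KO. The other libraries are from P14 and from adults, and the adult labels carry a batch number that the other labels lack. All 16 libraries entered the main fit and its estimate of the spread. Every animal is labelled female and untreated. Cells were isolated from each brain without enzymes, sorted by flow cytometry into TRIzol, and their total RNA was amplified for 15 cycles with a SMART-Seq v4 kit before Nextera XT library preparation. Strain, allele, deleted exons and sorting gate are not given in the sources used here, nor is the number of animals behind a library. P-values therefore measure the spread between these samples, and in sorted bulk RNA fewer cells of a type and less RNA per cell cannot be told apart.

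Microglia are the resident macrophages of brain tissue. In the first postnatal weeks they multiply, take up dying cells and synapses, and acquire the receptors and transcription factors of the adult surveying state. IRF8 belongs to the interferon regulatory factors, a family of transcription factors, and is found mainly in myeloid and B cells. It binds DNA poorly alone and works with partners, PU.1 at composite ETS-IRF elements, BATF and JUN proteins at composite AP-1 elements, and other IRF proteins at interferon-stimulated response elements.

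The 6 libraries held 12.8 to 14.8 M reads assigned to genes, out of 17.5 to 19.9 M. Uniquely mapped reads outside genes made up 12.1% to 15.3% in WT and 8.31% to 13.1% in libraries labelled IRF8KO, and the numbers of genes with at least 1 read were 22133 to 23186 against 17350 to 20767, which do not overlap. Correlations of log2 CPM (gene counts scaled to library size) ran from 0.955 to 0.976 within genotypes and from 0.894 to 0.922 between them. The defining microglial genes Csf1r, Tmem119, Fcrls and Olfml3 were read in all 6 libraries. Of the 12 defining genes, 3 (25%) were lower and 0 higher in the tests below (median log2 fold change -0.86). Among all genes tested, 11.3% were lower and 4.22% higher. Sall1, also among the 12, was not detected in libraries labelled IRF8KO. The summed CPM of the 12 was 36106 to 45989.8 in WT and 26469 to 30957 in libraries labelled IRF8KO.

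Irf8 was not reduced at P9. The gene, at chr8:120736358-120756694 of GRCm38, had 538, 715 and 639 CPM in the 3 WT libraries and 1021, 1089 and 883 CPM in the 3 labelled IRF8KO. The groups did not overlap and the labelled knockouts were the higher ones. The log2 fold change of 0.66 ± 0.32 (standard error, SE) did not pass the test (adjusted p = 0.204, edgeR quasi-likelihood with Benjamini-Hochberg adjustment over all genes, as in every test below), though it passed in a fit of the P9 libraries alone (0.63, adjusted p = 0.0354). Gene counts carry no information on exons or alleles, and the genotype therefore stands here as a label only.

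Sall1, Spint1 and Adgrg5 transcripts were not detected in the libraries labelled IRF8KO at P9, and Pf4, Clec4n, Clec12a and Gdf3, nearly absent in WT, were abundant in them. Among 18295 genes tested, 2837 (15.5%) passed at an adjusted p below 0.05. Of these, 772 (4.22%) were higher and 2065 (11.3%) lower in libraries labelled IRF8KO. With each of the 6 P9 libraries left out in turn, 371 genes stayed higher and 1241 stayed lower in all 6 fits. The higher count fell to 417 without WT library 1, to 481 without WT library 3 and to 464 without IRF8KO library 1, and it was 1281 in a fit of the P9 libraries alone. The 3 and 3 libraries did not overlap for 6987 genes (38.2%), 15.6% of all genes being higher and 22.6% lower.

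The increases and decreases differed in abundance. Genes called higher took up 3.86% to 4.17% of gene reads in WT and 14.5% to 16.3% in libraries labelled IRF8KO. Apoe, the most abundant of the genes called higher (values below), makes up a large part of this rise. Genes called lower held 8.94% to 9.07% in WT and 2.59% to 2.62% in libraries labelled IRF8KO. The direction of both shifts was set by the calls, which come from the same libraries. Among the 7778 genes with a mean of at least 10 CPM over the 6 libraries, 504 were higher and 317 lower, with a median log2 fold change of 0.13. Among the 10517 genes below 10 CPM, 268 were higher and 1748 lower, with a median of -0.58. The median over all genes tested was -0.09.

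Neuronal transcripts were among the low-abundance decreases. Of 15 neuron markers tested, 13 (86.7%) were lower and 0 higher (median log2 fold change -3.45), against 11.3% and 4.22% of all genes. Their summed level was 80.6 to 95.9 CPM in WT against 8.75 to 13.02 CPM in libraries labelled IRF8KO. Syt1, the calcium sensor of synaptic vesicle release, had 10.1, 8.64 and 11.1 CPM against 0.933, 0.409 and 1.13 CPM. At P14 the order was the opposite, with 12.6 to 22.2 CPM in WT and 143 to 601 CPM in libraries labelled IRF8KO. Of the 1748 low-abundance genes lower at P9, 1309 were called higher at P14, against 26 of the 317 more abundant ones. The part of neuronal RNA in the low-abundance decreases was not tested, and the genes described below are mostly above 10 CPM in the higher group.

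**Figure D1:**
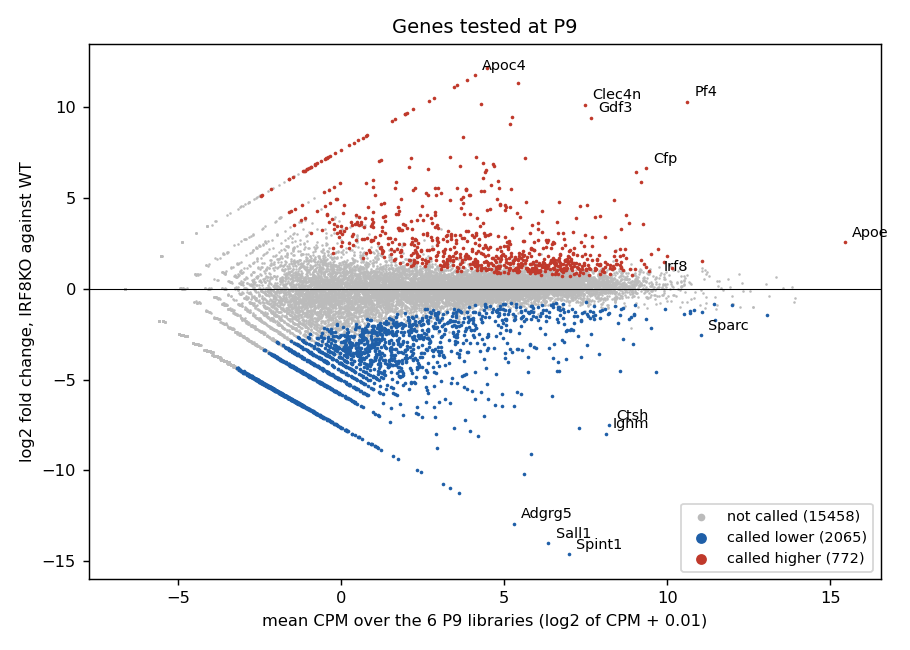
Log2 fold change of IRF8KO against WT at P9 (vertical axis) against mean log2 CPM over the 6 P9 libraries (horizontal axis) for the 18295 genes tested, with the 772 genes called higher in red, the 2065 called lower in blue and the others in grey. Decreases crowd at low abundance and increases extend to the most abundant genes. Fitted values of genes with 0 reads in a genotype depend on the prior count and are no bound.

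Among the largest decreases, Spint1, which encodes a Kunitz-type inhibitor of membrane serine proteases (chr2:119237362-119249527), had 214, 273 and 268 CPM in WT and 0 reads in the 3 libraries labelled IRF8KO (at least 3355-fold lower, adjusted p = 4.81e-08). Sall1 (chr8:89027235-89044162), a zinc-finger factor that maintains microglial identity, had 188, 148 and 153 CPM in WT and 0 reads in the others (at least 2217-fold lower, adjusted p = 6.01e-07). Adgrg5, an adhesion G protein-coupled receptor, had 54.8, 81.3 and 98.6 CPM in WT and again 0 reads (at least 1037-fold lower). For all 3 genes, every WT library was high and every library labelled IRF8KO empty. The lower bounds place 3 reads over the 3 empty libraries.

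Ly86, Mrc2, Npnt, Slamf8 and Col27a1 were among the other large decreases. Ly86, which encodes MD-1, the partner that the lipopolysaccharide-related receptor CD180 needs at the cell surface, had 361, 291 and 287 CPM in WT against 1.58, 1.06 and 1.90 CPM (-7.68 ± 0.52 on the log2 scale, adjusted p = 7.48e-08). Mrc2, an endocytic collagen receptor, fell from 113 ± 42.2 to 0.189 ± 0.177 CPM (mean ± SD, n = 3 here and below, WT first). Npnt, the matrix protein nephronectin, was lower in libraries labelled IRF8KO by 1330.1-fold (95% counting interval 455 to 6452). Slamf8, a receptor of the SLAM family that restrains phagocyte oxidase activity, had 7.49, 10.9 and 11.8 CPM in WT and 0 reads in the others (at least 133-fold lower). Col27a1, a fibrillar collagen, went from 36.7 ± 3.81 to 0.119 ± 0.109 CPM. All of these decreases held in each fit without 1 P9 library.

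Transcripts of immunoglobulin heavy-chain constant regions were among them. Ighm, for the mu chain, had 495, 635 and 526 CPM in WT and 2.37, 2.45 and 1.69 CPM in libraries labelled IRF8KO, so that each WT library was far above the others (-7.99 ± 0.43, adjusted p = 1.47e-08). Ighd, for the delta chain, fell from 15.01 ± 1.62 to 0.0479 ± 0.0829 CPM. Cd79a, a B cell receptor subunit that marks B cells, was at 0.0930 ± 0.0810 and 0.417 ± 0.0835 CPM and did not pass the test (adjusted p = 0.322), while Cd79b, its partner, was at 209 ± 39.1 and 74.4 ± 21.7 CPM and did (-1.49 ± 0.39, adjusted p = 0.0142, but 0.0503 without WT library 3). Of the 5 lymphocyte markers tested, which include Ighm, Cd79a and Cd79b, the other 2 rose in every fit without 1 P9 library. Cd4, which marks helper T cells and some macrophages, went from 0.0248 ± 0.0429 to 4.401 ± 1.27 CPM, a ratio of 181-fold (95% counting interval 32.01 to 7175), and Klrb1c, a lectin of NK cells, from 0 reads to 1.04 ± 0.161 CPM (at least 14.2-fold). Of the 5 tested, 2 (40%) rose and 2 (40%) fell, against 4.22% and 11.3% of all genes. Among the 14 lymphocyte markers listed, 6 had 0 reads in all P9 libraries (Cd3g, Cd8a, Ms4a1, Nkg7, Gzma and Ncr1). The part of lymphocytes in these values was not tested.

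The largest increases began from no reads or almost none. Apoc4, an apolipoprotein gene beside Apoe, had 0 reads in WT and 32.9, 43.3 and 26.9 CPM in libraries labelled IRF8KO (at least 464-fold higher, adjusted p = 1.30e-06). Ch25h, whose enzyme makes 25-hydroxycholesterol from cholesterol, had 0 reads and 33.7, 19.9 and 32.9 CPM (at least 399-fold higher). Tlr8, an endosomal receptor for RNA, had 0 reads and 20.96, 9.41 and 40.5 CPM (at least 333-fold higher, adjusted p = 0.00158). The libraries labelled IRF8KO were all above the WT ones for each of the 3, as the choice of genes without overlap required. Each call held without any 1 P9 library.

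Pf4, Gdf3 and Clec4n were among the other large increases. Pf4, the chemokine platelet factor 4, had 1.43, 2.14 and 3.94 CPM in WT and 2916, 4156 and 2291 CPM in libraries labelled IRF8KO (10.28 ± 0.74, adjusted p = 1.40e-07). Gdf3, a ligand of the TGF-beta family, had 0.717, 0.576 and 0.446 against 398, 494 and 311 CPM (9.40 ± 0.73, adjusted p = 4.31e-07). Clec4n, the fungal pattern receptor dectin-2, had 0.521, 0.411 and 0 against 349, 452 and 274 CPM (10.11 ± 0.94, adjusted p = 2.13e-06). In all 3 the lowest library labelled IRF8KO was many times above the highest WT library. Cd38, an enzyme that consumes NAD, rose from 0.110 ± 0.190 to 75.9 ± 15.8 CPM, and Vnn3, a pantetheinase, from 0 reads to 44.3 ± 2.31 CPM (at least 604-fold). Nlrc3, an intracellular regulator of innate signalling, rose from 0.120 ± 0.105 to 20.1 ± 3.42 CPM (7.26 ± 0.59). Tnfsf8, the ligand of CD30, went from 0 reads to 12.8 ± 6.15 CPM (at least 179-fold higher).

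**Figure D2:**
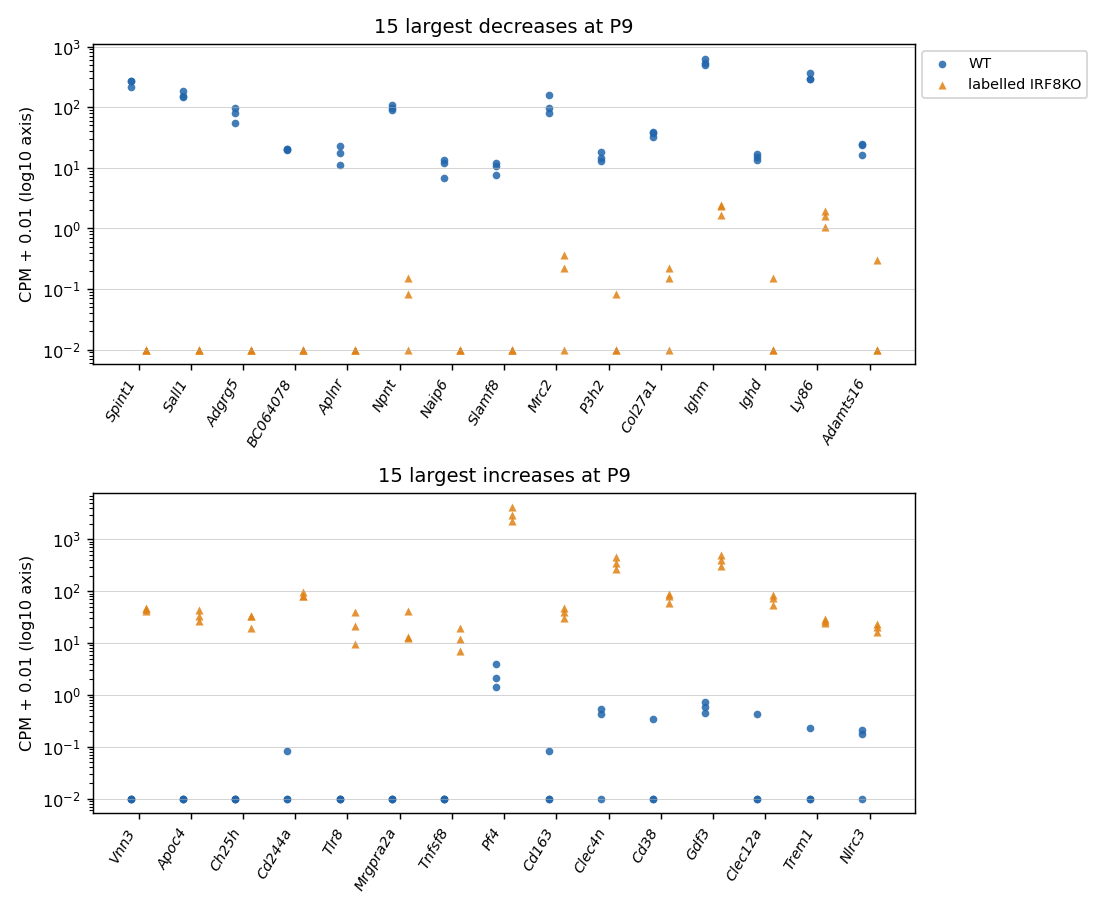
CPM in each P9 library, on a log10 axis after adding 0.01 CPM, for the 15 largest decreases (upper panel) and the 15 largest increases (lower panel) among called genes with at least 10 CPM in the higher genotype. Blue circles are the 3 WT libraries and orange triangles the 3 labelled IRF8KO. Only genes without overlap of the 2 genotypes could enter, so the symbols are apart for each of the 30 genes by that choice.

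Abundant genes changed by smaller factors. Apoe, whose product carries lipids between brain cells, rose from 12919.7 ± 2945 to 76016 ± 20133 CPM (2.56 ± 0.46, adjusted p = 0.00113). Il4ra, the receptor chain shared by interleukin-4 and interleukin-13, had 397, 503 and 503 CPM in WT against 1797, 1629.7 and 1346 CPM (1.77 ± 0.37), and Lgals9, the lectin galectin-9, rose from 512 ± 21.9 to 1419 ± 251 CPM (1.47 ± 0.33). Among the decreases, Sparc, a secreted matrix-binding protein, had 3275, 3951 and 3479 CPM in WT and 581, 544 and 680.5 CPM in libraries labelled IRF8KO (-2.57 ± 0.28, adjusted p = 1.19e-05). Ckb, brain-type creatine kinase, fell from 4339 ± 737 to 1302 ± 277 CPM (-1.74 ± 0.41), and Slco2b1, an organic anion transporter, from 2128 ± 337 to 807 ± 90.2 CPM (-1.40 ± 0.33). For Il4ra and Sparc the lowest library of the higher genotype was above the highest of the other.

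IRF proteins bind 2 copies of GAAA 2 bases apart, and promoters were described by the presence of such letters, without data on binding. The 250 bases before annotated starts were searched in RefSeq promoters of GRCm38.p6 for GAAANNGAAA, the interferon-stimulated response element, and GGAANNGAAA, the ETS-IRF composite element, on both strands, with overlapping matches counted. Of the 27025 genes with a promoter in the table, 3.46% hold GAAANNGAAA and 2.68% GGAANNGAAA. GAAANNGAAA occurs in 3.25% of genes tested at P9. Among called genes with at least 10 CPM in the higher group, it occurs in 6.13% of those higher and 4.36% of those lower. Of 28 interferon-stimulated genes with a promoter in the table, 16 (57.1%) hold GAAANNGAAA. Among those called higher at P9 it was 6 of 8, and among those tested but not called 10 of 19. Neither motif was found in the 13 largest increases that have a promoter there, and GAAANNGAAA was found in 1 of 8 among the largest decreases, Slamf8. Matches are a description of these letters only. The sequences below show the element in 4 interferon-stimulated genes that were higher and in Slamf8, with Spint1 for contrast, written 5′ to 3′ on the strand of the gene and ending at the base before the start. Capitals mark GAAANNGAAA or its reverse complement.
Isg15 (chr4:156200819-156201068, minus strand): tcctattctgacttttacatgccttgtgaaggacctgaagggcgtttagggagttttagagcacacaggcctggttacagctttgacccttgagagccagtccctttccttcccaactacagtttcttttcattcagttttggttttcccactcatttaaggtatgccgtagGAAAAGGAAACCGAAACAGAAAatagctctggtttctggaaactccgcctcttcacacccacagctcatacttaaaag
Ifit3 (chr19:34583279-34583528, plus strand): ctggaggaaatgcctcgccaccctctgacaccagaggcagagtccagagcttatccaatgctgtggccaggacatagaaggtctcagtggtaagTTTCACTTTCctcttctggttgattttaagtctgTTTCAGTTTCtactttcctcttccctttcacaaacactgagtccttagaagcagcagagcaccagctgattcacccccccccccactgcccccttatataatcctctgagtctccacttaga
Oas1a (chr5:120907526-120907775, minus strand): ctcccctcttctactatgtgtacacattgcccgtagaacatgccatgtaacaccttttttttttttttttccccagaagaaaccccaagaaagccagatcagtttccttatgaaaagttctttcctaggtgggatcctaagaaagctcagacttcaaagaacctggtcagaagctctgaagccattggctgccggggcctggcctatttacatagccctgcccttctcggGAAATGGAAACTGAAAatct
Ifi207 (chr1:173741810-173742059, minus strand): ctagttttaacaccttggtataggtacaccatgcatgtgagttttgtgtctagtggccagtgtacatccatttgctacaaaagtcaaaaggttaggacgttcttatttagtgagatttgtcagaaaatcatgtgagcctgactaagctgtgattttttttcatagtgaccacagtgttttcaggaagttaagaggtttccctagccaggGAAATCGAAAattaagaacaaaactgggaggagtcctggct
Slamf8 (chr1:172590569-172590818, minus strand): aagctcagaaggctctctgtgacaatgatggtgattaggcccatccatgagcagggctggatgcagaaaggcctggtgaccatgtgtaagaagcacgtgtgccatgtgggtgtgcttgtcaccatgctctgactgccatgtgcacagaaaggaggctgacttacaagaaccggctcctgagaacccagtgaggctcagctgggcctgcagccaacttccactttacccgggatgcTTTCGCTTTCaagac
Spint1 (chr2:119237110-119237359, plus strand): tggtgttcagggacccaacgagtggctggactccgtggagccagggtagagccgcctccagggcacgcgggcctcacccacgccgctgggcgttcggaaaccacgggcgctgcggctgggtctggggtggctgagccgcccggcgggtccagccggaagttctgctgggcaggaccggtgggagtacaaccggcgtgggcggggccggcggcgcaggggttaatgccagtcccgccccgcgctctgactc
In Isg15, which encodes a ubiquitin-like modifier, 3 overlapping matches follow each other from position -78, counted back from the start. Oas1a, an oligoadenylate synthetase that senses double-stranded RNA, has 2 overlapping matches, the farther one at -20. In Ifit3, an antiviral RNA-binding family member, matches begin at -156 and -122, and in Ifi207, of the interferon-inducible p200 family, at -41. The Slamf8 match, at -15, reads on the minus strand of the gene.

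Interferon-stimulated genes were mostly higher or not called. Of 38 tested, 11 (28.95%) rose and 2 (5.26%) fell (median log2 fold change 0.82), against 4.22% and 11.3% of all genes. Their summed level was 386 to 440.2 CPM in WT against 744 to 788 CPM. Rtp4, a chaperone of receptor transport, had 7.49, 11.1 and 11.7 CPM in WT and 74.6, 44.01 and 65.6 CPM in libraries labelled IRF8KO (2.61 ± 0.30, adjusted p = 1.56e-05), with no overlap. Oas2 rose from 3.13 ± 0.700 to 37.997 ± 18.6 CPM (3.60 ± 0.82) and Ifi207 from 0.414 ± 0.354 to 14.6 ± 9.63 CPM (5.15 ± 0.80). Ifit3, Isg15 and Oas1a rose by 2.173 ± 0.50, 2.06 ± 0.53 and 1.58 ± 0.40, and these 3 calls were lost without WT library 1 or IRF8KO library 1, where the adjusted p was 0.0613 to 0.0808. The 2 decreases were Mx1, an antiviral GTPase, from 3.76 ± 0.646 to 0.120 ± 0.207 CPM (-4.83 ± 0.96), and Ifitm3, a membrane protein that blocks viral entry, from 20.5 ± 5.86 to 5.14 ± 2.66 CPM (-1.99 ± 0.47). Without WT library 1, 6 members rose, and without IRF8KO library 1, 7, while 4 fell without IRF8KO P14 library 1 or 3. Oas and Ifit genes have close paralogues, and their counts are uncertain to that extent.

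Among IRF factors, Irf7, which drives type I interferon transcription, had 8.15, 20.8 and 15.5 CPM in WT and 72.7, 53.9 and 48.9 CPM in libraries labelled IRF8KO (1.98 ± 0.41, adjusted p = 0.00317). It was the only one of 9 tested family members that rose in every fit without 1 P9 library. Irf4, the closest relative of Irf8, was at 2.28 ± 0.205 and 7.71 ± 2.58 CPM and passed with all libraries (1.75 ± 0.53, adjusted p = 0.0329) but not in 5 of the 6 fits without 1 P9 library (adjusted p 0.0915 to 0.137, IRF8KO library 3 being the exception), nor with a replicate block (0.0981). Irf5, which acts downstream of Toll-like receptors, was at 356 ± 63.8 and 305 ± 29.4 CPM and did not pass (adjusted p = 0.743).

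The DNA-binding partners of IRF8 moved both ways. Batf3, an AP-1 factor that cooperates with IRF8 in dendritic cells, had 18.4, 21.6 and 19.8 CPM in WT and 0.503, 0.900 and 0.211 CPM in libraries labelled IRF8KO (-5.21 ± 0.58, adjusted p = 1.51e-05). Ets1, an ETS-family factor, had 41.6, 37.7 and 40.8 against 4.88, 3.27 and 3.52 CPM (-3.36 ± 0.44, adjusted p = 6.64e-05). Fosl2, a FOS-family factor, rose from 5.28 ± 0.394 to 19.49 ± 0.774 CPM (1.88 ± 0.30). Spi1, which encodes PU.1, was at 403 ± 46.3 and 516 ± 96.4 CPM, which did not pass (adjusted p = 0.641). Of 20 ETS, AP-1 and BATF-partner genes tested, 5 (25%) rose and 2 (10%) fell (median 0.51), against 4.22% and 11.3% of all genes. The share of decreases was thus near that of all genes. The count of increases was 1 to 2 without WT library 1 or 3 or IRF8KO library 1 or 2. It was 8 in a fit of the P9 libraries alone.

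Other transcription factors of macrophages gave larger increases. Of 30 tested, 7 (23.3%) rose and 1 (3.33%), Sall1, fell (median 0.17), against 4.22% and 11.3% of all genes. In all fits without 1 P9 library, 4 of the increases held. Bhlhe40, a basic helix-loop-helix repressor active in stimulated macrophages, had 0.456, 1.32 and 0.966 CPM in WT and 48.1, 50.8 and 66.3 CPM in libraries labelled IRF8KO (5.92 ± 0.61, adjusted p = 6.58e-06). Id2, an inhibitor of basic helix-loop-helix factors, rose from 22.4 ± 2.13 to 98.8 ± 7.51 CPM (2.14 ± 0.32), Klf2, a zinc-finger factor of quiescence, from 26.4 ± 6.32 to 128 ± 48.5 CPM (2.27 ± 0.40), and Runx2, best known from bone, from 0.446 ± 0.317 to 10.8 ± 2.25 CPM (4.54 ± 0.68). The WT values of Bhlhe40 were all below the lowest value of the other genotype. Mef2c and Mef2a, which are high in microglia, had log2 fold changes of -0.00 ± 0.52 and 0.21 ± 0.74 and did not pass.

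Surface lectins were gained. Of 16 C-type lectin receptors tested, 8 (50%) rose and 1 (6.25%) fell (median 2.59), against 4.22% and 11.3% of all genes. The summed level went from 165 to 199 CPM in WT to 754 to 787 CPM. Clec12a, an inhibitory receptor for crystals of dead cells, had 0, 0.411 and 0 CPM in WT and 74.1, 55.5 and 85.9 CPM in libraries labelled IRF8KO (9.06 ± 0.72, adjusted p = 1.12e-06). Clec7a, the beta-glucan receptor dectin-1, had 0.847, 0.822 and 0.371 against 87.4, 64.9 and 146 CPM (7.17 ± 0.84, adjusted p = 4.48e-05). Klrb1b, an inhibitory lectin of the NK receptor family, went from 0 reads to 4.02, 5.64 and 7.88 CPM (at least 80.2-fold higher). In each of these genes all libraries labelled IRF8KO were above all WT libraries. Clec4n, Clec12a, Clec7a and Klrb1b lie on chromosome 6. Without WT library 1, 5 of the 8 increases passed.

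Paired receptors of the CD300, TREM and SLAM families changed in both directions. Of 30 tested, 11 (36.7%) rose and 5 (16.7%) fell (median 0.27), against 4.22% and 11.3% of all genes. In all fits without 1 P9 library, 9 and 3 held. Pilra, an inhibitory immunoglobulin-like receptor, had 13.1, 16.04 and 15.2 CPM in WT and 323, 405 and 334 CPM in libraries labelled IRF8KO (4.58 ± 0.39, adjusted p = 8.09e-07). Cd300lb, an activating receptor, had 2.61, 3.21 and 3.42 against 74.6, 69.1 and 63.5 CPM (4.49 ± 0.54), and Trem1, an amplifier of inflammatory signalling, had 3 reads over the WT libraries and 29.2, 26.3 and 24.7 CPM in the others, a ratio of 365-fold (95% counting interval 125 to 1773). Cd244a, a SLAM-family receptor known as 2B4, rose from 0.0248 ± 0.0429 to 86.4 ± 7.82 CPM, a ratio of 3551-fold (95% counting interval 637 to 140312). Hcst, the DAP10 adaptor of activating receptors, rose from 19.4 ± 2.13 to 73.96 ± 22.5 CPM (1.93 ± 0.40). Of the 5 decreases, 4 were SLAM-family receptors and the other was Lilra5, a leukocyte immunoglobulin-like receptor (from 9.74 ± 0.3997 to 3.80 ± 0.948 CPM, -1.35 ± 0.37, adjusted p = 0.0174, but 0.0647 without IRF8KO library 2 and 0.0585 with a replicate block). Slamf1 fell from 2.41 ± 0.962 to 0.0718 ± 0.124 CPM, a ratio of 31.9-fold (95% counting interval 10.6 to 157), and its call was lost without WT library 2 or IRF8KO library 2 or 3 (adjusted p 0.0524 to 0.0710). Slamf6 fell from 14.5 ± 2.18 to 0.0943 ± 0.107 CPM (-7.07 ± 0.97) and Cd84 from 99.4 ± 24.2 to 11.99 ± 6.96 CPM (-3.05 ± 0.48), beside Slamf8 above. Without IRF8KO library 2, 3 of the 5 decreases passed. Trem2 and its adaptor Tyrobp, which sense lipids and apoptotic cells, had log2 fold changes of -0.51 ± 0.41 and 0.81 ± 0.45 and did not pass.

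**Figure D3:**
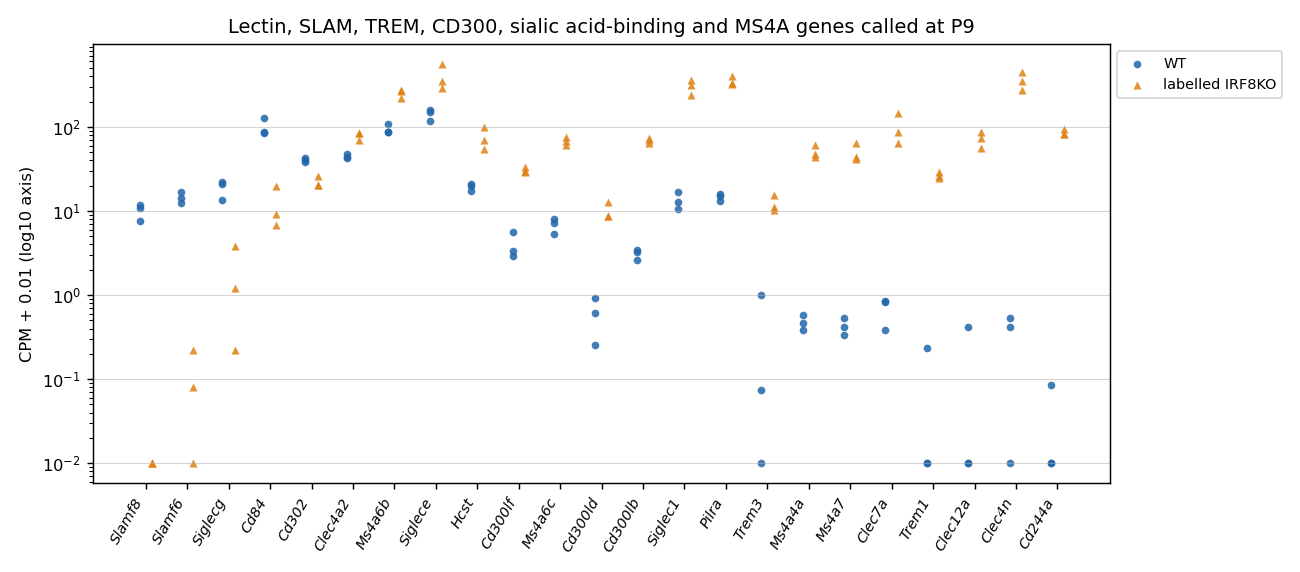
CPM in each P9 library, on a log10 axis after adding 0.01 CPM, of the C-type lectin, SLAM, TREM, CD300, sialic acid-binding and MS4A genes that were called at P9 and reached 10 CPM in the higher genotype. Blue circles are the 3 WT libraries and orange triangles the 3 labelled IRF8KO. Genes are ordered by log2 fold change, from Slamf8 at 0 reads in libraries labelled IRF8KO to Cd244a.

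MS4A proteins, membrane-spanning proteins encoded in a cluster on chromosome 19, were raised. Of 8 tested, 4 (50%) rose and 0 fell (median 3.04), against 4.22% and 11.3% of all genes. All 4 rose in every fit without 1 P9 library. Ms4a7 had 0.326, 0.411 and 0.520 CPM in WT and 43.4, 64.4 and 41.7 CPM in libraries labelled IRF8KO (6.87 ± 0.62, adjusted p = 1.43e-06), and Ms4a4a rose from 0.468 ± 0.103 to 51.1 ± 8.64 CPM (6.75 ± 0.51). Ms4a6b rose from 94.4 ± 12.6 to 252 ± 28.1 CPM (1.42 ± 0.24), and so did Ms4a6c (3.32 ± 0.29), although part of its exons is shared with another annotated gene. The WT and IRF8KO-labelled values of Ms4a7 did not overlap. Among sialic acid-binding lectins, Siglec1, the sialoadhesin of tissue macrophages, had 10.4, 16.7 and 12.6 against 316, 359 and 239.5 CPM (4.52 ± 0.46, adjusted p = 5.84e-06), while Siglecg, an inhibitory lectin of B cells and phagocytes, fell from 18.9 ± 4.57 to 1.76 ± 1.88 CPM (-3.44 ± 0.70).

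Of 23 Toll-like receptors and their helpers tested, 1 (Tlr8) rose and 4 fell, 4.35% and 17.4% against 4.22% and 11.3% of all genes (median -0.08). Tlr12, a sensor of profilin from protozoa, had 27.8, 34.1 and 36.99 CPM in WT and 0.646, 2.45 and 0.985 CPM in libraries labelled IRF8KO (-4.61 ± 0.72, adjusted p = 3.52e-04), and Tlr5, the flagellin receptor, fell from 13.8 ± 1.86 to 3.29 ± 0.785 CPM (-2.07 ± 0.36). Tlr4, Tlr7 and the adaptor Myd88 did not pass, at 0.19 ± 0.85, 0.19 ± 0.58 and 0.65 ± 0.32. The 2 genotypes were apart for Tlr12 in every library. Among 20 cytosolic sensors and inflammasome genes, 2 (10%) rose and 4 (20%) fell. Nod1, a sensor of bacterial peptidoglycan, had 16.2, 23.03 and 24.4 CPM in WT and 88.6, 73.6 and 57.6 CPM in the others (1.79 ± 0.32, adjusted p = 0.00111). Naip6, a sensor of the inflammasome that detects bacterial flagellin, had 13.5, 12.2 and 6.76 CPM in WT and 0 reads in the others (at least 146-fold lower), a value made uncertain by close Naip paralogues. Nod1 and Naip6 held in all fits without 1 P9 library, and of the 4 decreases only 1 passed without WT library 2 or 3, and 2 without WT P14 library 2 or IRF8KO P14 library 2.

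In the complement system, the positive regulator properdin was gained. Cfp, which encodes properdin, had 14.3, 13.4 and 11.5 CPM in WT and 1249, 1658 and 989 CPM in libraries labelled IRF8KO (6.63 ± 0.56, adjusted p = 8.09e-07), so the lowest of these was far above the highest WT value. C4b, the classical pathway component, rose from 11.7 ± 3.81 to 57.9 ± 9.36 CPM (2.31 ± 0.50). C1qb, a subunit of the initiating complex, went from 12666 ± 2674 to 4600.4 ± 1667 CPM (-1.46 ± 0.47, adjusted p = 0.0435), and the call was lost without WT library 2 or 3 or IRF8KO library 1 or 3 at P9 (adjusted p 0.0553 to 0.124), and without any of 3 P14 libraries (0.0511 to 0.0566). C1qa and C1qc, the other subunits, had log2 fold changes of -0.85 ± 0.44 and -0.98 ± 0.49 and did not pass. Of 19 complement genes tested, 3 (15.8%) rose and 2 (10.5%) fell with a median of 0.06, against 4.22% and 11.3% of all genes. Without IRF8KO P14 library 3, 7 rose, and in a fit of the P9 libraries alone 8 rose and 5 fell.

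Of the genes of MHC class II and class I presentation, 20% and 11.8% were called, against 15.5% of all genes. Among 15 MHC class II genes tested, 3 fell and 0 rose (median -0.32). H2-DMa, which loads peptides onto class II molecules, had 262, 374 and 369.9 CPM in WT and 33.2, 61.8 and 24.3 CPM in libraries labelled IRF8KO (-3.08 ± 0.46, adjusted p = 2.28e-04). Cd74, the invariant chain, had 182, 219.7 and 259.7 against 40.997, 67.98 and 30.7 CPM (-2.24 ± 0.42, adjusted p = 0.00142), and H2-Ob, a modulator of loading, fell from 25.03 ± 3.07 to 8.20 ± 2.57 CPM (-1.61 ± 0.36). None of the 3 genes overlapped between genotypes, and 5 class II genes fell without IRF8KO library 3 or without IRF8KO P14 library 1 or 3. The class II chains H2-Aa and H2-Ab1 and the transactivator Ciita did not pass, at 1.05 ± 0.805, 22.7 ± 3.65 and 0.443 ± 0.0513 CPM in WT and 1.01 ± 1.33, 8.23 ± 4.76 and 0.164 ± 0.284 CPM in the others. Of 17 class I genes, H2-Q6 (-5.18 ± 1.00) and H2-Q7 (-4.24 ± 0.74) fell, 2 near-identical genes between which reads cannot be assigned with certainty. H2-K1, H2-D1 and B2m did not pass, at 0.42 ± 0.37, 0.37 ± 0.39 and 0.36 ± 0.29.

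Receptors for dying cells and scavenger receptors changed in both directions. Of 28 tested, 3 (10.7%) rose and 4 (14.3%) fell, against 4.22% and 11.3% of all genes, around a median of 0.07. Each of these calls held in all fits without 1 P9 library. Axl, a receptor tyrosine kinase that recognises phosphatidylserine through its ligands, had 148, 189 and 223 CPM in WT and 14.4, 5.73 and 3.94 CPM in libraries labelled IRF8KO (-4.54 ± 0.47, adjusted p = 7.04e-06). Pros1, one of those ligands, fell from 229 ± 81.4 to 47.5 ± 20.1 CPM (-2.27 ± 0.55), while Mertk, the sister kinase, and Gas6, the other ligand, were at 0.51 ± 0.68 and 0.08 ± 0.29 and did not pass. The WT libraries were all above the others for Axl. Colec12, a scavenger receptor with a collectin domain, rose from 0.633 ± 0.421 to 27.4 ± 13.6 CPM (5.41 ± 0.97), Stab1, the multi-ligand receptor stabilin-1, from 1092 ± 131 to 3179 ± 539 CPM (1.54 ± 0.31), and Cd163, the haemoglobin scavenger receptor, had a ratio of 1617-fold (95% counting interval 289.8 to 63902). Of 8 Fc receptor genes, 1 (12.5%) fell, Fcrl1, an Fc receptor-like protein of B cells (-3.02 ± 0.51), and the other 7 did not pass.

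Chemokines that rose were mostly of the CXC class and those that fell mostly of the CC class. Of 20 chemokines tested, 6 (30%) rose and 5 (25%) fell (median 0.15), against 4.22% and 11.3% of all genes. Beside Pf4, Ppbp, its neighbour on chromosome 5, went from 0 reads to 11.1, 7.28 and 9.43 CPM (at least 128-fold higher), and Cxcl14 had 1.24, 0.576 and 1.71 CPM in WT and 56.6, 72.98 and 39.1 CPM in the others (5.56 ± 0.54, adjusted p = 2.97e-06). Ccl6 had 144, 245 and 181 CPM in WT against 26.6, 31.4 and 23.1 CPM (-2.81 ± 0.46, adjusted p = 4.98e-04), and Ccl3, a ligand of CCR1, fell from 27.8 ± 5.10 to 5.76 ± 3.60 CPM (-2.26 ± 0.51). The genotypes did not overlap in Cxcl14 or Ccl6. The exceptions by class were Ccl7, a ligand of CCR2, from 3.69 ± 2.09 to 14.2 ± 7.20 CPM (1.95 ± 0.63, adjusted p = 0.0453, but 0.131 to 0.188 without WT library 1 or 3 or IRF8KO library 1 or 2), and Cxcl12, the ligand of CXCR4, from 1.16 ± 0.389 CPM to 0 reads. Without WT library 2, 3 of the 5 decreases passed. Among the receptors, Ccr1 fell from 60.4 ± 26.6 to 12.4 ± 2.53 CPM (-2.28 ± 0.51), Cmklr1, the chemerin receptor, from 20.02 ± 2.29 to 2.43 ± 1.32 CPM (-3.04 ± 0.43), and Ptafr, the receptor of platelet-activating factor, from 198 ± 17.9 to 39.1 ± 9.87 CPM (-2.34 ± 0.27). Cx3cr1, the fractalkine receptor of microglia, was at 2696 ± 40.2 and 1438 ± 293 CPM and did not pass (adjusted p = 0.0803).

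Cytokines and their receptors changed in both directions. Il1rn, the natural antagonist of interleukin-1, had 1.63, 0.493 and 0.297 CPM in WT and 17.3, 8.51 and 15.4 CPM in libraries labelled IRF8KO (4.05 ± 0.85, adjusted p = 0.00329), while Il1b was at 1.29 ± 1.47 and 1.79 ± 0.318 CPM and did not pass. Pdgfb, a platelet-derived growth factor, fell from 74.9 ± 17.8 to 21.97 ± 5.61 CPM (-1.77 ± 0.33). In all, 6 (21.4%) of 28 cytokines rose and 4 (14.3%) fell (median 0.43), against 4.22% and 11.3% of all genes. The decreases numbered 2 without WT library 2 or 3 or IRF8KO library 2. Of 37 cytokine receptor and signalling genes, 7 (18.9%) rose and 6 (16.2%) fell (median 0.18). Il17ra, a chain of the interleukin-17 receptor, had 112, 139 and 136 CPM in WT and 572, 611 and 471 CPM in the others (2.10 ± 0.28, adjusted p = 8.37e-05). Il10ra, the ligand-binding chain of the interleukin-10 receptor, had 603, 854 and 741 against 295, 297 and 253 CPM (-1.38 ± 0.33), and Il10rb, its second chain, rose from 83.7 ± 8.79 to 196 ± 14.9 CPM (1.23 ± 0.26). Neither Il17ra nor Il10ra overlapped between genotypes. Csf1r, the receptor that microglia need to survive, was at 18281 ± 2897 and 12793 ± 1519 CPM and did not pass (adjusted p = 0.373). Without WT library 1, IRF8KO library 1 or IRF8KO library 3, 4 of the 7 receptor increases passed.

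G protein-coupled receptors of microglia changed in both directions. Adora3, an adenosine receptor, had 24.4, 29.3 and 28.2 CPM in WT and 0.144, 0.164 and 0.211 CPM in libraries labelled IRF8KO (-7.22 ± 0.47, adjusted p = 4.81e-08), with 20.9% of its exon bases shared with an overlapping gene. Adgrg1, an adhesion receptor for matrix and phosphatidylserine known as GPR56, had 1201, 1693 and 1756 against 64.5, 58.8 and 73.04 CPM (-4.56 ± 0.39, adjusted p = 9.03e-07). Adgre5, the adhesion receptor CD97, rose from 3.56 ± 1.52 to 98.2 ± 26.6 CPM (4.78 ± 0.52), and Gpr65, a proton-sensing receptor, from 0.891 ± 0.706 to 47.2 ± 22.2 CPM (5.69 ± 0.88). P2ry12, the ADP receptor that guides microglial processes, was at 1031, 480.0 and 813 CPM in WT and 139.9, 80.3 and 300.2 CPM in the others, and did not pass (-2.16 ± 0.73, adjusted p = 0.0562), but did in DESeq2 (0.00848) and with the P9 libraries alone (0.00499). Of 28 purinergic, adenosine and adhesion receptors, 4 rose and 4 fell, 14.3% each against 4.22% and 11.3% of all genes (median -0.19), while 7 fell without IRF8KO P14 library 3 and 8 in a fit of the P9 libraries alone.

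Among lysosomal enzymes, cathepsin H was the one lost. Ctsh had 514, 696 and 562 CPM in WT and 3.45, 3.19 and 3.03 CPM in libraries labelled IRF8KO (-7.51 ± 0.48, adjusted p = 4.81e-08), with every WT library far above the others. Ctsl, for cathepsin L, fell from 3021 ± 475 to 1249.8 ± 141 CPM (-1.27 ± 0.31), part of its exons being shared with predicted genes. Ctsd, Ctsb and Lgmn, major proteases of microglial lysosomes, did not pass, at 0.66 ± 0.42, -1.03 ± 0.35 and -0.43 ± 0.37, although Ctsb did in DESeq2 (adjusted p = 0.00988) and with the P9 libraries alone (0.00443). Of 34 lysosomal genes tested, 4 (11.8%) fell and 0 rose (median -0.21), against 11.3% and 4.22% of all genes. The decreases numbered 2 without WT library 2 or 3, 7 without WT library 1, and 8 without IRF8KO P14 library 1 or 3. In a fit of the P9 libraries alone 11 fell and 3 rose.

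Extracellular proteases, their inhibitors and matrix proteins were gained and lost in similar numbers. Of 36 tested, 8 (22.2%) rose and 10 (27.8%) fell (median -0.43), against 4.22% and 11.3% of all genes. In all fits without 1 P9 library, 6 and 8 held. Serpine2, an inhibitor of thrombin and plasminogen activators, had 668, 818 and 675 CPM in WT and 38.8, 22.99 and 30.5 CPM in libraries labelled IRF8KO (-4.55 ± 0.38, adjusted p = 8.09e-07). Tgfbi, a matrix protein that binds integrins, had 64.1, 74.4 and 67.9 against 822, 892 and 777 CPM (3.59 ± 0.31, adjusted p = 8.09e-07). Adamts16, a secreted metalloprotease, fell from 21.6 ± 4.44 to 0.0957 ± 0.166 CPM (-7.64 ± 0.69). Fn1, fibronectin, and Thbs1, thrombospondin-1, rose from 2.15 ± 0.263 and 4.47 ± 0.246 to 45.3 ± 7.67 and 36.8 ± 9.93 CPM (4.39 ± 0.57 and 3.04 ± 0.62), and Emilin2, an elastic-fibre protein, from 24.5 ± 7.77 to 201 ± 42.4 CPM (3.03 ± 0.48). Serpine2 and Tgfbi did not overlap between genotypes and moved in opposite directions.

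Adhesion molecules of circulating leukocytes were raised. Itgal, the alpha chain of LFA-1, had 27.2, 33.1 and 27.5 CPM in WT and 485, 498 and 410.1 CPM in libraries labelled IRF8KO (3.99 ± 0.41, adjusted p = 5.84e-06). Itga4, a chain of VLA-4, had 0.782, 0.658 and 0.297 against 44.1, 22.1 and 53.4 CPM (6.07 ± 0.70, adjusted p = 2.11e-05), and Cd44, the hyaluronan receptor, rose from 2.76 ± 1.78 to 63.4 ± 13.03 CPM (4.51 ± 0.97). The lowest IRF8KO-labelled library was above the highest WT library for Itgal and Itga4. Itgb3, a chain of the vitronectin receptor, fell from 68.8 ± 9.92 to 22.8 ± 8.18 CPM (-1.59 ± 0.29), and F11r, a junctional adhesion molecule, from 548 ± 55.6 to 199 ± 35.8 CPM (-1.46 ± 0.28). Of 27 integrins and adhesion molecules, 4 rose and 4 fell (14.8% each, median 0.11), against 4.22% and 11.3% of all genes. In a fit of the P9 libraries alone 8 rose.

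TGF-beta is a cytokine on which microglial identity depends. Of 20 genes of its signalling tested, 1 (5%) rose and 4 (20%) fell (median 0.02), against 4.22% and 11.3% of all genes. In a fit of the P9 libraries alone 2 fell. The increase, of the SMAD repressor Ski (0.80 ± 0.25, adjusted p = 0.0371), passed in none of the 6 fits without 1 P9 library. The receptors Tgfbr1 and Tgfbr2 did not pass, at 0.05 ± 0.60 and -0.32 ± 0.37. Acvrl1, the type I receptor ALK1, had 37.1, 57.5 and 45.1 CPM in WT and 4.52, 3.93 and 6.12 CPM in libraries labelled IRF8KO (-3.26 ± 0.44, adjusted p = 8.17e-05), and Eng, its coreceptor endoglin, had 63.6, 91.7 and 74.2 against 22.5, 28.5 and 21.6 CPM (-1.66 ± 0.31, adjusted p = 0.00141). Both are best known from endothelium, and for both all WT libraries were above the others. Of the 10 endothelial and mural markers tested, 2 (20%) fell and 0 rose. These markers summed to 50.1 to 52.5 CPM in WT and 12.2 to 17.02 CPM in the others. Their part in the decreases of Acvrl1 and Eng was not tested.

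Lipid handling genes rose more often than they fell. Apoc1, next to Apoe on chromosome 7, had 10.6, 14.9 and 10.8 CPM in WT and 1055, 1115 and 947 CPM in libraries labelled IRF8KO (6.43 ± 0.52, adjusted p = 8.09e-07). Apobec1, the editing enzyme of apolipoprotein B RNA, had 20.8, 12.2 and 20.3 against 101, 93.8 and 148 CPM (2.68 ± 0.45, adjusted p = 5.84e-04). The genotypes did not overlap for either gene. Fabp5, a fatty acid-binding protein, fell from 31.1 ± 1.71 to 8.61 ± 1.51 CPM (-1.85 ± 0.38), and Cyp27a1, a sterol hydroxylase, from 43.1 ± 0.438 to 19.8 ± 0.768 CPM (-1.13 ± 0.28). Abca1, the cholesterol exporter, did not pass (0.15 ± 0.36). Of 32 apolipoprotein, LXR-target and lipid handling genes, 10 (31.25%) rose and 2 (6.25%) fell (median 0.68), against 4.22% and 11.3% of all genes. Of 22 genes of cholesterol synthesis 2 (9.09%) fell and 0 rose (median -0.25), against 11.3% and 4.22% of all genes.

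Iron and haem handling genes rose without a decrease among them. Of 15 tested, 6 (40%) rose and 0 fell (median 0.94), against 4.22% and 11.3% of all genes. In all fits without 1 P9 library, 4 of them rose. Slc40a1, the iron exporter ferroportin, had 178, 181 and 166 CPM in WT and 625, 542 and 726 CPM in libraries labelled IRF8KO (1.85 ± 0.26, adjusted p = 1.11e-04). Blvrb, a biliverdin reductase, had 71.8, 92.1 and 93.4 against 300.0, 397 and 244 CPM (1.87 ± 0.39, adjusted p = 0.00305), and neither gene overlapped between genotypes. Hmox1, haem oxygenase 1, was at 68.2 ± 14.8 and 64.04 ± 11.98 CPM and did not pass (adjusted p = 0.905).

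Glycolysis genes changed in both directions, and few genes of respiration or cell division passed. Slc2a5, a fructose transporter that marks microglia, had 694, 1013 and 959 CPM in WT and 102, 125 and 93.2 CPM in libraries labelled IRF8KO (-3.06 ± 0.39, adjusted p = 4.88e-05). Phosphofructokinase subunits changed in opposite directions. Pfkl, the liver subunit, rose from 205 ± 27.6 to 566 ± 104 CPM (1.47 ± 0.33), and Pfkp, the platelet subunit, fell from 39.1 ± 3.73 to 2.64 ± 1.23 CPM (-3.88 ± 0.50). Of 21 glycolysis genes, 2 (9.52%) rose and 4 (19.05%) fell (median -0.07), against 4.22% and 11.3% of all genes. Among 20 respiration genes 0 rose and 1 (5%) fell (median 0.25), and 4 rose in a fit of the P9 libraries alone. Of 34 cell cycle genes, 1 rose and 1 fell (2.94% each, median -0.28), the decrease being Cdk6, a G1 kinase, from 50.8 ± 1.90 to 15.7 ± 2.61 CPM (-1.69 ± 0.31). Mki67 and Top2a, which mark dividing cells, were at 22.4 ± 6.46 and 28.6 ± 12.7 CPM in WT and 12.8 ± 7.30 and 15.7 ± 3.06 CPM in the others, and did not pass.

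**Figure D4:**
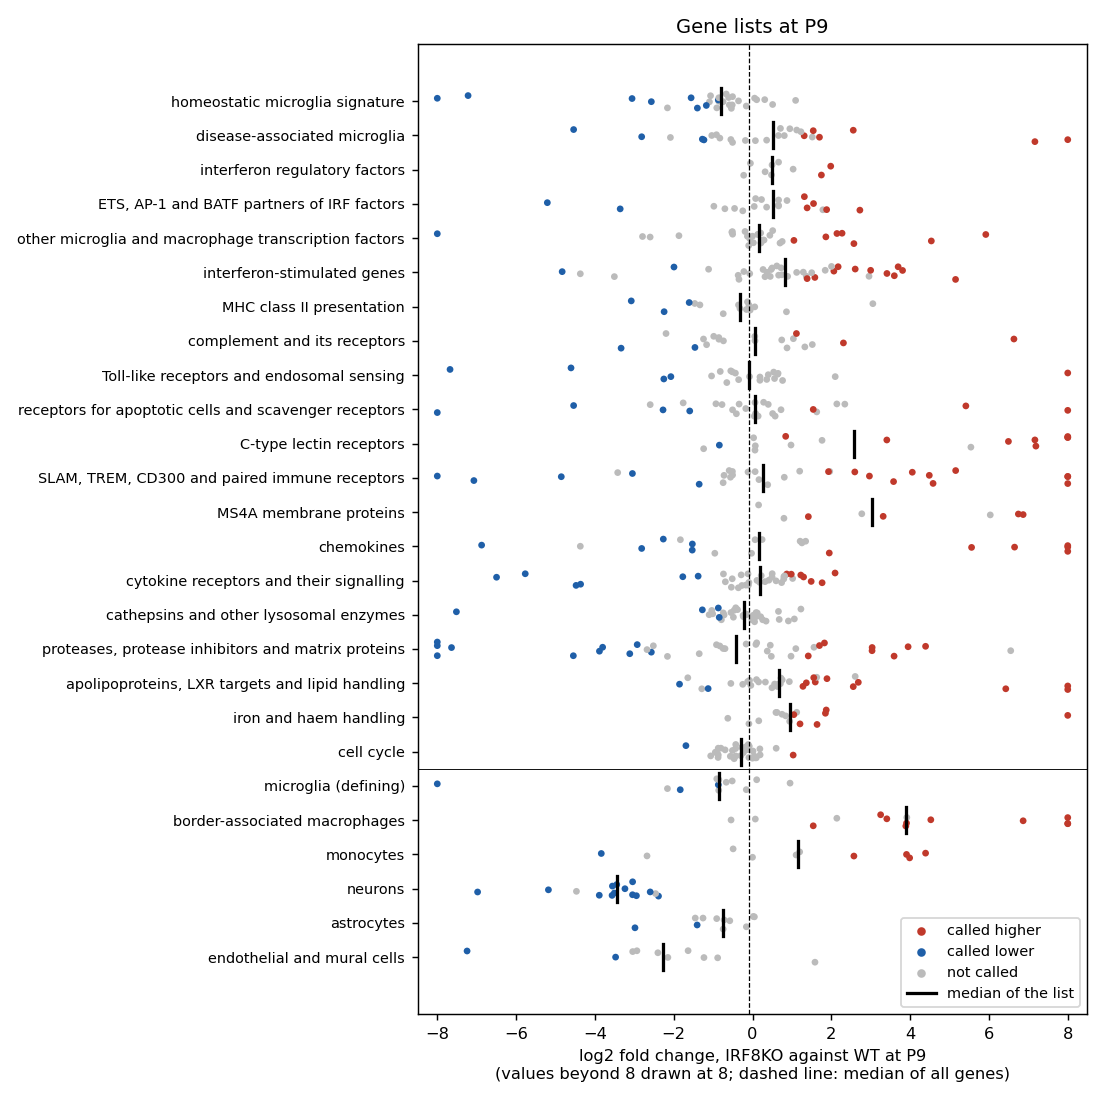
Log2 fold change at P9 (horizontal axis) of each tested member of 20 function groups and 6 cell type groups (rows). Red points were called higher, blue points called lower and grey points did not pass, with a black bar at the median of the group. Points beyond 8 are drawn at 8, where fitted values depend on the prior count, and the dashed line is the median over all genes tested, -0.09.

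State markers of microglia moved unevenly. Of 28 genes of the homeostatic signature, 8 (28.6%) fell and 0 rose (median -0.80), against 11.3% and 4.22% of all genes. In all fits without 1 P9 library, 6 of the 8 fell (Sall1, Adora3, Sparc, Slc2a5, Bin1 and Slco2b1). Bin1, a membrane-bending protein, fell from 702 ± 89.4 to 238 ± 56.4 CPM (-1.56 ± 0.34). Tmem119, the membrane protein most used to mark microglia, had 4076, 6304 and 5429 CPM in WT and 2603, 3617 and 2506 CPM in the others, groups that did not overlap, and it did not pass (-0.86 ± 0.41, adjusted p = 0.188). In a fit of the P9 libraries alone 16 of the 28 fell. Among 26 genes of disease-associated microglia, 6 (23.1%) rose and 4 (15.4%) fell (median 0.51), against 4.22% and 11.3% of all genes. Apoe, Clec7a and Ch25h were raised while Axl, Ccl6 and Ctsl fell. In a fit of the P9 libraries alone 11 rose and 8 fell. Among 17 genes of the microglia of proliferative regions of the postnatal brain, 4 (23.5%) rose and 2 (11.8%) fell. The share of decreases was near the 11.3% of all genes, and without WT library 1, 2 rose. Lgals1, the lectin galectin-1, had 16.6, 23.2 and 25.7 CPM in WT and 612, 886 and 413 CPM in libraries labelled IRF8KO (4.87 ± 0.46, adjusted p = 2.14e-06), while Spp1, Gpnmb and Igf1, which mark the same state, did not pass, at -0.91 ± 0.51, 0.95 ± 0.52 and 0.07 ± 0.63.

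Markers of border-associated macrophages, which live in meninges and around vessels, had the largest share of increases among the cell type lists. Of 14 tested, 10 (71.4%) rose and 0 fell (median 3.90), against 4.22% and 11.3% of all genes. In all fits without 1 P9 library, 9 of them rose. The sum of the markers went from 1262 to 1377 CPM in WT to 7575 to 10012 CPM. Cbr2, a carbonyl reductase, had 14.3, 22.04 and 19.2 CPM in WT and 183, 452 and 188 CPM in libraries labelled IRF8KO (3.89 ± 0.49, adjusted p = 4.52e-05). Dab2, an endocytic adaptor, had 94.8, 62.01 and 63.7 against 656, 490.0 and 955 CPM (3.25 ± 0.54, adjusted p = 5.31e-04), and both genes were apart in all libraries. The markers Mrc1, Lyve1, Folr2 and Mgl2 did not pass. Mrc1, the mannose receptor, had 188, 74.4 and 122 CPM in WT and 493, 302 and 899.7 CPM in the others (2.14 ± 0.74, adjusted p = 0.0590), Lyve1, a hyaluronan receptor, had 0.152 ± 0.263 and 2.56 ± 1.74 CPM, and Folr2, a folate receptor, 0.839 ± 0.193 and 0.575 ± 0.196 CPM. The part of border-associated macrophages among the sorted cells in the increases of Pf4, Clec4n, Ms4a7, Siglec1, Cd163 and Stab1 was not tested.

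Other cell types gave smaller or opposite shifts. Of 10 monocyte markers 4 (40%) rose and 1 (10%) fell (median 1.15), against 4.22% and 11.3% of all genes. Without IRF8KO library 1 there were 3 increases, as Nr4a1 did not pass (adjusted p = 0.0529). The increases were Fn1 and Itgal, given above, F13a1, a coagulation factor subunit also on the list of border-associated macrophages, from 2.24 ± 1.34 to 33.7 ± 9.87 CPM (3.91 ± 0.80), and Nr4a1, a nuclear receptor of patrolling monocytes, from 1.29 ± 0.452 to 7.72 ± 3.87 CPM (2.57 ± 0.61). Ccr2, the receptor by which monocytes leave the marrow, was at 0.326 ± 0.564 and 0.734 ± 0.643 CPM and did not pass, and Plac8, abundant in monocytes, fell from 7.19 ± 0.721 to 0.493 ± 0.197 CPM (-3.84 ± 0.82). None of the 4 neutrophil markers tested passed, and S100a8, a major neutrophil transcript, was at 0.320 ± 0.219 and 0.662 ± 0.349 CPM. Astrocyte markers summed to 419 to 521 CPM in WT and 211 to 323 CPM in the others, with 2 of 11 (18.2%) lower. Erythroid markers summed to 464 to 680.2 CPM in WT and 133 to 916 CPM in the others. None of the 9 was called, the highest sum being that of IRF8KO library 1, and without that library 6 fell. Cspg4, a proteoglycan that marks oligodendrocyte precursors and pericytes, had 1.37, 1.89 and 1.63 CPM in WT and 72.7, 81.8 and 62.1 CPM in libraries labelled IRF8KO (5.46 ± 0.56, adjusted p = 6.06e-06), while the precursor markers Pdgfra and Olig1 were at 0.287 ± 0.205 and 8.18 ± 2.09 CPM in those libraries and did not pass.

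Immediate early genes, which dissociation can induce, were partly higher. Of 19 tested, 7 (36.8%) rose and 0 fell (median 0.66), against 4.22% and 11.3% of all genes. Without WT library 3, 4 rose, and without IRF8KO library 1, 3. Egr1, a zinc-finger factor induced within minutes, rose from 2.74 ± 1.08 to 17.9 ± 2.20 CPM (2.71 ± 0.50), and Ier2 from 26.6 ± 4.83 to 155 ± 46.5 CPM (2.55 ± 0.46). Hspa1a, the inducible heat shock protein, was at 0.0522 ± 0.0454 and 0.0469 ± 0.0812 CPM. The part of cell handling in the increases of AP-1 genes above was not tested.

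**Figure D5:**
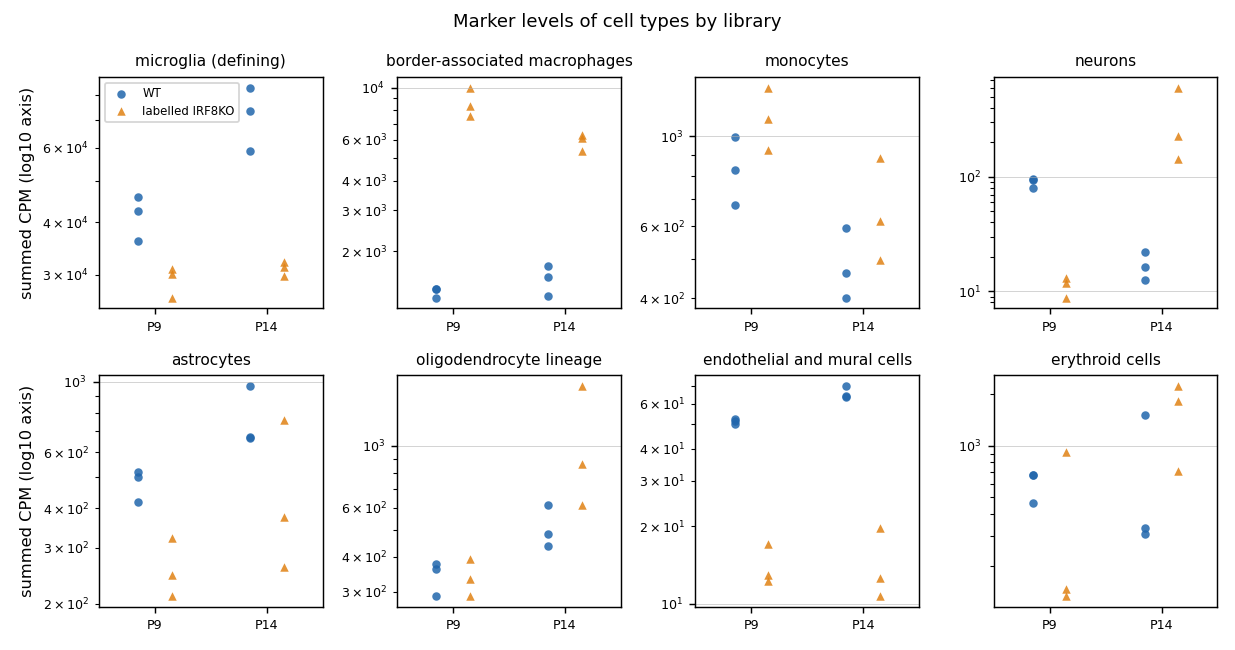
Summed CPM of 8 cell type marker lists (panels) in each library at P9 and P14, on log10 axes. Blue circles are WT libraries and orange triangles libraries labelled IRF8KO. The neuron panel shows WT above IRF8KO-labelled libraries at P9 and below them at P14, while border-associated macrophage markers are higher in IRF8KO-labelled libraries at both ages.

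The labels include the same comparison at P14, so each P9 effect could be tested against that at P14, which uses other libraries. Of 772 genes higher at P9, 479 were also called higher at P14 and 1 lower. Of 2065 genes lower at P9, 421 were also called lower at P14 and 1335 higher, while of the 317 with a mean above 10 CPM 249 were also called lower. The effects differed for 3821 of 18295 genes (20.9%), the P9 effect being above that at P14 for 502 (2.74%) and below it for 3319 (18.1%). The first number ranged from 60 without WT P9 library 1 to 1068 without IRF8KO P14 library 3, and it was 72 without IRF8KO P9 library 1. The second was 2425 in a fit of the 2 ages alone.

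Some microglial decreases were shallower at P9. Serpinf1, which encodes the secreted factor PEDF, had 177, 249 and 236 CPM in P9 WT libraries and 10.9, 20.5 and 13.5 CPM in those labelled IRF8KO, without overlap. Its log2 fold change was -3.88 ± 0.39 at P9 and -6.03 ± 0.43 at P14 (difference 2.15 ± 0.50, adjusted p = 0.00449). Lpar5, a receptor of lysophosphatidic acid, changed by -2.08 ± 0.33 at P9 and -4.23 ± 0.36 at P14 (difference 2.15 ± 0.45, adjusted p = 0.00206). Klf2 was higher at P9 (2.27 ± 0.40) and did not pass at P14 (-0.00 ± 0.39, difference 2.27 ± 0.55, adjusted p = 0.00593). Hs3st2, a heparan sulfate sulfotransferase, was higher at P9 (3.05 ± 0.44) and lower at P14 (-1.23 ± 0.41, difference 4.28 ± 0.60, adjusted p = 5.50e-05). Tgm2, a transglutaminase, rose by 7.23 ± 0.57 at P9 and 2.03 ± 0.40 at P14 (difference 5.20 ± 0.67), with 0.221 ± 0.132 CPM in WT at P9 and 11.3 ± 2.13 CPM in WT at P14.

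For Ms4a4a, Runx2 and Vegfa the P9 effect was below that at P14. Ms4a4a had 19 reads over the 3 WT libraries at P9 and 0 at P14, against 51.1 ± 8.64 and 41.5 ± 8.15 CPM in libraries labelled IRF8KO (adjusted p of the difference = 0.00477). Runx2 had 19 and 0 WT reads, against 10.8 ± 2.25 and 12.6 ± 4.29 CPM in the others (adjusted p = 0.0125). Vegfa, the angiogenic growth factor, had 35 and 2 WT reads, against 5.01 ± 2.84 and 8.83 ± 1.52 CPM (adjusted p = 0.00363). From P9 to P14 the WT levels of the 3 genes fell (adjusted p = 0.0137, 0.0353 and 0.0240), and the changes in libraries labelled IRF8KO did not pass (adjusted p = 0.617, 0.816 and 0.294). Neuronal transcripts gave effects of opposite sign. Meg3, a long noncoding RNA abundant in neurons, changed by -4.51 ± 0.59 at P9 and 5.43 ± 0.62 at P14 (difference -9.94 ± 0.85, adjusted p = 1.72e-06), and Mapt, the axonal protein tau, by -3.38 ± 0.54 and 5.53 ± 0.59 (difference -8.91 ± 0.80, adjusted p = 1.97e-06). Their order of genotypes at each age was that of the summed neuron markers given above.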

How the data were processed

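RNA of sorted microglia was sequenced in 16 libraries, of which the 6 from P9 carry the comparison and the 6 from P14 a test of differences between ages. The authors deposited 1 table of raw read counts per gene and library, and per the submitters' processing notes bcl2fastq, STAR 2.5.2b, Picard 2.17.11, Subread featureCounts and the build mm10 were used, with no roles or options stated. Reads on the 2 strands were equal (ratio 0.998 to 1.00 in P9 libraries), so the unstranded counts were used, and overlapping genes on opposite strands cannot be told apart. Reads that name no gene (25.5% to 29.0% at P9) were left out. All 55536 identifiers matched GENCODE M21, which gave symbols and positions on GRCm38, and promoter sequences came from RefSeq.

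Counts were tested in R 4.3.3 with edgeR 4.0.16 (filterByExpr, TMM scaling, robust quasi-likelihood fit) over all 16 libraries in 6 groups of genotype and age, with 10 residual degrees of freedom, a median prior of 7.155 more and Benjamini-Hochberg adjustment over 18295 genes. The fit was tested on simulated data. CPM uses TMM-scaled library sizes, and folds against 0 reads use a floor of 3 reads over the group. Fitted fold changes of genes at or near 0 reads depend on the prior count. Gene reads of 12.8 to 14.8 M per P9 library set the precision, and 95% exact counting intervals cover counting error only, the variance between P9 replicates being 11.2 times the counting variance in the median gene. Alternatives used RLE scaling, DESeq2 1.42.0, limma-voom (limma 3.58.1), no filter, only the ages compared, a replicate block and each library left out, with a fit without the robust option chosen after seeing the data.

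Comparison, members and gene lists were chosen with earlier results of these data known. Named genes are a selection by known function from Irf8, the 15 largest changes each way among called genes without overlap and at least 10 CPM in the higher group (predicted gene models left out), the 10 most abundant called genes each way, up to 6 called members of each list by smallest adjusted p with its 2 most abundant, and the 8 clearest differences from P14 each way. Further list members are given by values. Some genes of the lists are not reported here by name.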

Additional observations from a re-analysis of the deposited data

Results flagged for a closer look

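The effect of the genotype label at P9 differed from that at P14 for 3821 genes by a test of the difference itself (an interaction term in the edgeR fit, Benjamini-Hochberg adjustment over all genes), and 32 of the 193 genes named here were among them. Differences below are log2 fold changes at P9 minus those at P14. The part of the library differences between the ages, given above, was not tested.

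Effects that were higher at P9 belonged to 15 of the 32. The difference was 5.20 for Tgm2, 5.06 for Cd244a, 4.28 for Hs3st2 and 4.06 for Mgl2. It was 3.33 for Siglecg, 2.27 for Klf2, 2.15 for Lpar5 and 2.15 for Serpinf1. It was 1.96 for C4b, 1.76 for Eng, 1.48 for Myd88, 1.46 for Lgals9, 1.46 for Il17ra, 1.07 for Ski and 1.05 for Ptafr. For Siglecg, Lpar5, Serpinf1, Eng and Ptafr the fold change was negative at both ages and less so at P9.

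Effects that were lower at P9 belonged to the other 17. Of neuronal genes, Meg3 had a difference of -9.94, Mapt -8.91 and Syt1 -8.09, and the glycolytic Pfkp had -8.55, each negative at P9 and positive at P14, as were the summed neuron markers. Npnt (-3.53), Col27a1 (-4.90), Mx1 (-4.27), Cxcl12 (-7.04) and Fabp5 (-1.74) had a lower fold change at P9. Gpnmb (-4.16), Apoc1 (-1.97), Vegfa (-4.45), Ms4a4a (-5.27), Runx2 (-5.76) and Ifi207 (-5.75) had a less positive fold change at P9, and Ciita (-4.55) and Pdgfra (-7.70) were not called at P9. In WT at P14, Ms4a4a, Runx2, Ifi207 and Pdgfra had 0 reads and Vegfa 2, so that the size of their differences depends on the prior count. The same holds for Cxcl12, with 0 reads in libraries labelled IRF8KO at P9, and for Npnt, Col27a1 and Mx1, near 0 there. It also holds for Cd244a, near 0 in WT at P9.

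Of the 32 differences, 17 passed in every alternative and the other 15 were lost in at least 1, and those of Ptafr, Ski, C4b and Lgals9 were lost in 15, 13, 11 and 9 of the 19.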

How the results depend on the processing

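Of 144 named genes called at P9, 133 were called in the same direction in all 19 alternatives (6 other fits planned, 1 added and 12 that leave out 1 library), and C1qb, Ccl7, Cd79b, Ifit3, Irf4, Isg15, Lilra5, Nr4a1, Oas1a, Ski and Slamf1 were lost in at least 1. Of 49 not called, 15 passed in some. None of these genes reversed. The number of genes higher at P9 was 772, and 1281 in a fit of the P9 libraries alone, where 13929 genes were tested, and 417 to 966 with 1 library left out. The number lower was 2065, and 1402 to 2527 with 1 library left out. For 502 genes the P9 effect was above that at P14, for 253 with RLE scaling, for 1349 in a fit of P9 and P14 libraries alone and for 60 to 1068 with 1 library left out. The causes were not tested. In DESeq2 896 genes were higher and 2628 lower. Of 94 counts of called list members (each list and direction), 31 moved by over 1.5 times in the fit of the P9 libraries alone, 25 without the filter, 8 to 14 with RLE scaling, DESeq2, limma-voom or the block, and 1 to 17 with 1 library left out. With a replicate block within age, 623 genes were higher and 1566 lower at P9, and the named P9 calls lost were Irf4 (adjusted p = 0.0981), Lilra5 (0.0585) and Ski (0.0522). Deviations from the group means of same-numbered P9 libraries had r = -0.027, 0.243 and -0.034 across genes, so the numbers were not taken to pair the libraries, and libraries 1 and 3 did not correlate best with their own number. The median log2 fold change of all genes was -0.09, and -0.42 without IRF8KO P9 library 3. At 12.8 to 14.8 M gene reads, genes of a few reads have fold changes set by the prior count.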
